A study of Saccharomyces cerevisiae with 55 samples.

Results

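RNA polymerases I, II and III of budding yeast (Saccharomyces cerevisiae) were followed through a set of histone H4 mutants by the RNA levels of the genes that encode them. The 44 genes were chosen by symbol in the platform annotation (RPA, RPB, RPC, RRN or TFC followed by a number, plus RPO21, RPO26, RPO31 and RET1), out of 5540 named genes measured. They comprise 31 subunit genes and 13 genes of initiation factors. Of the subunit genes, 7 belong to polymerase I alone, 7 to polymerase II alone and 10 to polymerase III alone, 2 are shared by I and III, and 5 are shared by all 3 enzymes. The factor genes are 7 RRN genes for polymerase I and 6 TFC genes for polymerase III. Each gene was represented by 1 probe, and no member value lay at the limit of the ratio scale.

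Arginine replaced lysine at positions 5, 8, 12 and 16 of the H4 tail (K5R, K8R, K12R, K16R), singly and in every combination, which gave 15 mutants with 3 to 5 samples each. Total RNA of each mutant was compared on a 2-colour array with a parental strain that the labels call parental H4, MDY453 on 35 arrays and MDY470 on 20. The 54 samples came from 30 mutant strains, 2 strains per mutant, but 1 for K8R/K12R and 3 for the quadruple mutant. Values are log2 ratios, likely mutant over parental, centred on the median of each array, so that a change in the total RNA per cell would not be seen. Fewer cells of a kind and less RNA per cell cannot be told apart in such cultures.

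Polymerase I transcribes the large ribosomal RNA precursor, polymerase II the protein-coding genes, and polymerase III the transfer RNAs and the 5S ribosomal RNA. The enzymes share a core design: a pair of large subunits forms the active centre, a heterodimer supports assembly, a stalk binds initiation factors and the emerging transcript, and a set of small common subunits is used by all of them. Polymerases I and III carry further subunits that correspond to general factors of polymerase II. Most RNA made in growing yeast comes from polymerases I and III, and the genes for their subunits are, like all messenger RNAs, transcribed by polymerase II. The H4 tail lysines can be acetylated, and arginine keeps the charge of lysine but cannot be acetylated.

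The SD of the log2 ratio over all genes rose with the number of substitutions, from between 0.125 and 0.293 in the samples of single mutants to between 0.598 and 0.679 in those of the quadruple mutant. Precision is limited by how many arrays each mutant has, and no spot intensities were used here. One K12R/K16R sample, replicate 2 from strain MDY481, stood apart from the other samples of its mutant. Its median correlation with them across all genes was 0.572, against 0.81 to 0.815 for the other 3, and the SD over the 44 genes was 0.369, against 0.137 to 0.166. The other 3 all came from strain MDY464 against MDY453, whereas MDY481 was measured against MDY470. Strain, reference and array quality cannot be told apart here. In K5R/K8R, also with 2 strains, every sample had a median correlation between 0.555 and 0.586. With it, 6 members passed the test in K12R/K16R, where 26.1% of all genes did, and without it 0 members passed. The share of all genes without it was not taken. In the 3 triple mutants measured against both parental strains and in most doubles the arrays mixed both references, whereas the quadruple mutant and K5R/K12R/K16R were measured against MDY453 only.

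The genes of the 3 enzymes did not move together. In a model with 1 additive effect for each lysine, fitted with limma over all genes, the polymerase III genes fell on average with the loss of lysines 5, 8 and 12: 9 of the 10 were lower for the mean of the K5R, K8R and K12R effects, 0 were higher, and their median effect was -0.19. The remaining gene, RET1, had an effect of -0.06 ± 0.03 (SE, adjusted p = 0.0594 from limma). Each such effect is an average over the backgrounds of the other lysines, fitted with an intercept. It need not equal the change in a single mutant. Of the 7 polymerase I genes 5 were lower and 0 higher, with a median of -0.09. All 7 polymerase II genes passed the test, but 4 were higher and 3 lower, with a median of 0.09. Among all 44 members 6 were higher and 25 lower. Over all 5540 genes 32.3% were higher and 31.5% lower for the same mean effect, and the median was -0.00159. Without the quadruple mutant, 8 of the 10 polymerase III genes were lower beside 30.1% of all genes. On the MDY453 arrays alone all 10 were lower beside 27.3%. On the MDY470 arrays alone, where the quadruple mutant is missing, 5 of 10 were lower beside 15.4%. For polymerase I the MDY470 arrays alone gave 1 lower gene of 7, and for polymerase II 1 higher and 3 lower.

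**Figure D1:**
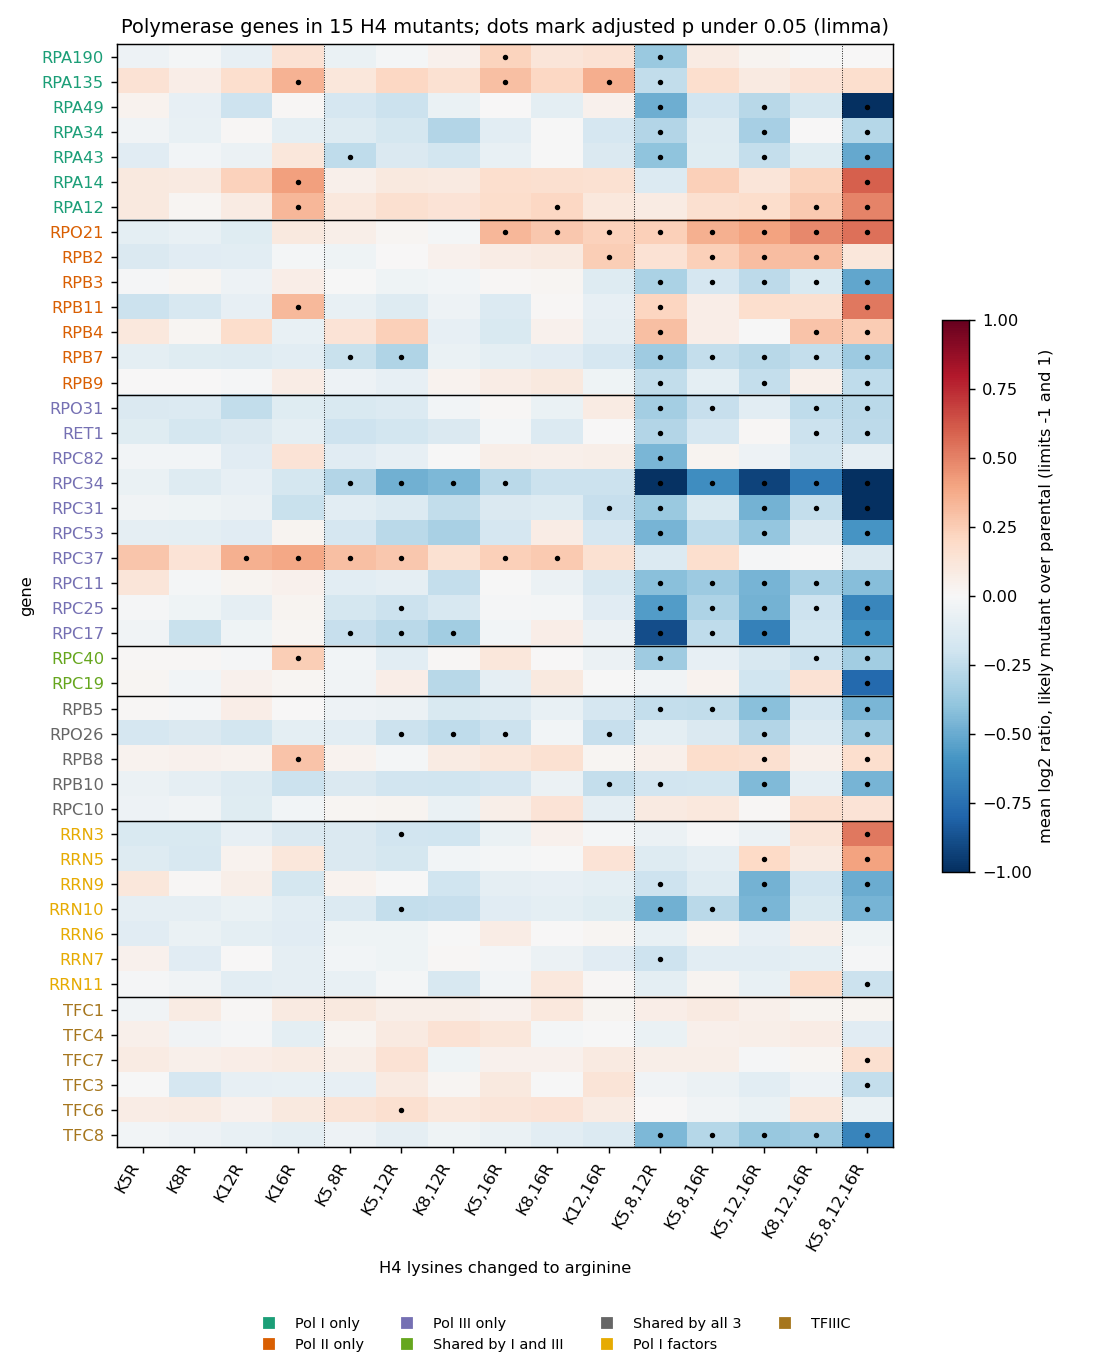
Mean log2 ratio (colour, likely mutant over parental, with the colour limits at -1 and 1) of the 44 genes in the 15 mutants. Rows are genes grouped by enzyme, columns are mutants ordered by number of substitutions, and a dot marks an adjusted p under 0.05 from limma. RPC34 darkens from left to right and reaches a mean of -1.94 in the quadruple mutant, while RPO21 and RPB11 are red there.

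Taken sample by sample, the median log2 ratio over the 10 polymerase III genes lay between -0.13 and 0.06 in the 12 samples of single mutants. In the 16 samples of triple mutants it lay between -0.51 and -0.13, and in the 4 of the quadruple mutant between -0.51 and -0.44. The triple and quadruple samples were thus all below 0. The median over the 7 polymerase II genes lay between -0.15 and 0.27 in the triple mutants and between -0.09 and 0.19 in the quadruple mutant, on both sides of 0. For polymerase I the corresponding ranges were -0.55 to 0.18 and -0.10 to 0.08. The polymerase III median was below the polymerase II median in 46 of 54 samples, including 16 of 16 triple-mutant and 4 of 4 quadruple-mutant samples, but in only 7 of 12 single-mutant samples. It was below the polymerase I median in 52 of 54 samples. This order was already there in 12 of 12 single-mutant samples, with a median difference of -0.10. In the quadruple mutant the median difference was -0.47. Polymerase I and II had no such order: polymerase I was the lower one in 22 of 54 samples. It was lower in 0 of 12 single-mutant samples and in 5 of 5 samples of K5R/K8R/K12R, where the polymerase I median was lowest, between -0.55 and -0.21.

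**Figure D2:**
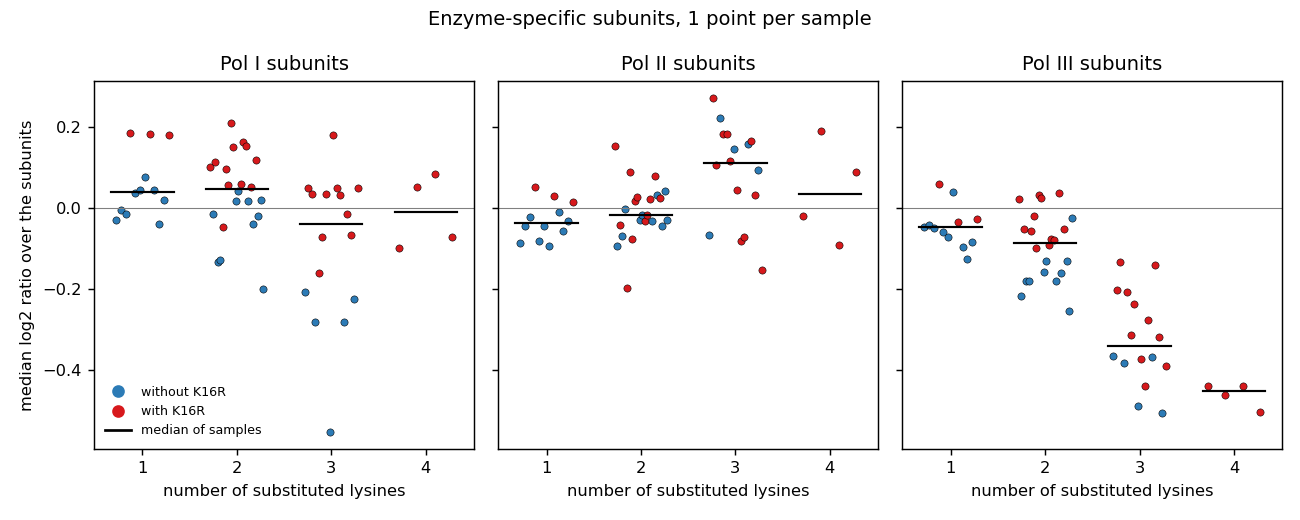
Median log2 ratio over the subunits specific to each enzyme, 1 point per sample, against the number of substituted lysines, with samples that carry K16R in red and the others in blue and a bar at the median of the samples. The polymerase III points fall from a median of -0.05 with 1 substitution to -0.45 with 4, whereas the polymerase II points stay around 0.

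Within polymerase III, the initiation subcomplex Rpc82-Rpc34-Rpc31 held RPC34 and RPC31, which were lowest in the quadruple mutant, and RPC82, which was near 0 there. RPC34 encodes the subunit that contacts the initiation factor TFIIIB. It read -2.09, -1.76, -1.56 and -2.33 in the 4 samples of the quadruple mutant, and between -1.11 and -0.50 in the 16 samples of triple mutants. It read between -0.55 and 0.02 in the 22 samples of doubles and between -0.25 and 0.03 in the 12 of singles. The quadruple samples lay below every triple sample, and the triple samples mostly below the doubles. The mean in the quadruple mutant was -1.94 ± 0.34 (SD, n = 4), and the fitted level was 3.76-fold lower than in the parental strain (adjusted p = 2.19e-25 from limma). In the additive fit the effects were -0.54 ± 0.07 for K5R, -0.48 ± 0.07 for K8R and -0.59 ± 0.07 for K12R (SE). The K16R effect was -0.39 ± 0.07 (adjusted p = 3.01e-05 from limma). No single-mutant sample was as low as any of these effects. The means were -0.11, -0.31, -0.83 and -1.94 with 1, 2, 3 and 4 substitutions. The fall was thus steeper with more substitutions, which an additive fit does not capture. RPC34 was lower with K16R in 7 of the 7 matched pairs, which are mutants with and without K16R in the same background, and lower in 21 of the 21 such pairs for the other lysines. Without the quadruple mutant the mean 3-site effect was -0.39 ± 0.03 and the K16R effect -0.24 ± 0.05. Within the MDY470 arrays they were -0.31 ± 0.06 (adjusted p = 0.000696 from limma) and -0.13 ± 0.10 (adjusted p = 0.413), so that the K16R call was not made there. No single mutant passed the test for RPC34.

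RPC31, which encodes another subunit of this subcomplex, read -2.13, -1.52, -1.15 and -1.93 in the quadruple mutant, 3.14-fold lower as fitted. Here the triple mutants stayed between -0.54 and -0.09, overlapping the doubles, which lay between -0.52 and 0.04. The quadruple samples again lay below every other sample. Much of the additive effect came from that mutant: the mean 3-site effect was -0.33 ± 0.05 (SE) with it, -0.11 ± 0.03 without it, and -0.04 ± 0.05 (adjusted p = 0.6 from limma) within the MDY470 arrays. RPC82 encodes the third subunit. Its mean 3-site effect was -0.11 ± 0.03, or -0.056 ± 0.037 (adjusted p = 0.265 from limma) within the MDY470 arrays. It read -0.07, -0.19, -0.03 and -0.08 in the quadruple mutant, within the range of the single mutants. Its lowest values were in K5R/K8R/K12R, with a mean of -0.46 ± 0.25 (SD, n = 5) that rests partly on 1 sample at -0.89. The log2 ratio of RPC34 minus that of RPC82 lay between -2.25 and -1.53 in the quadruple mutant and was below 0 in 49 of 54 samples.

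**Figure D3:**
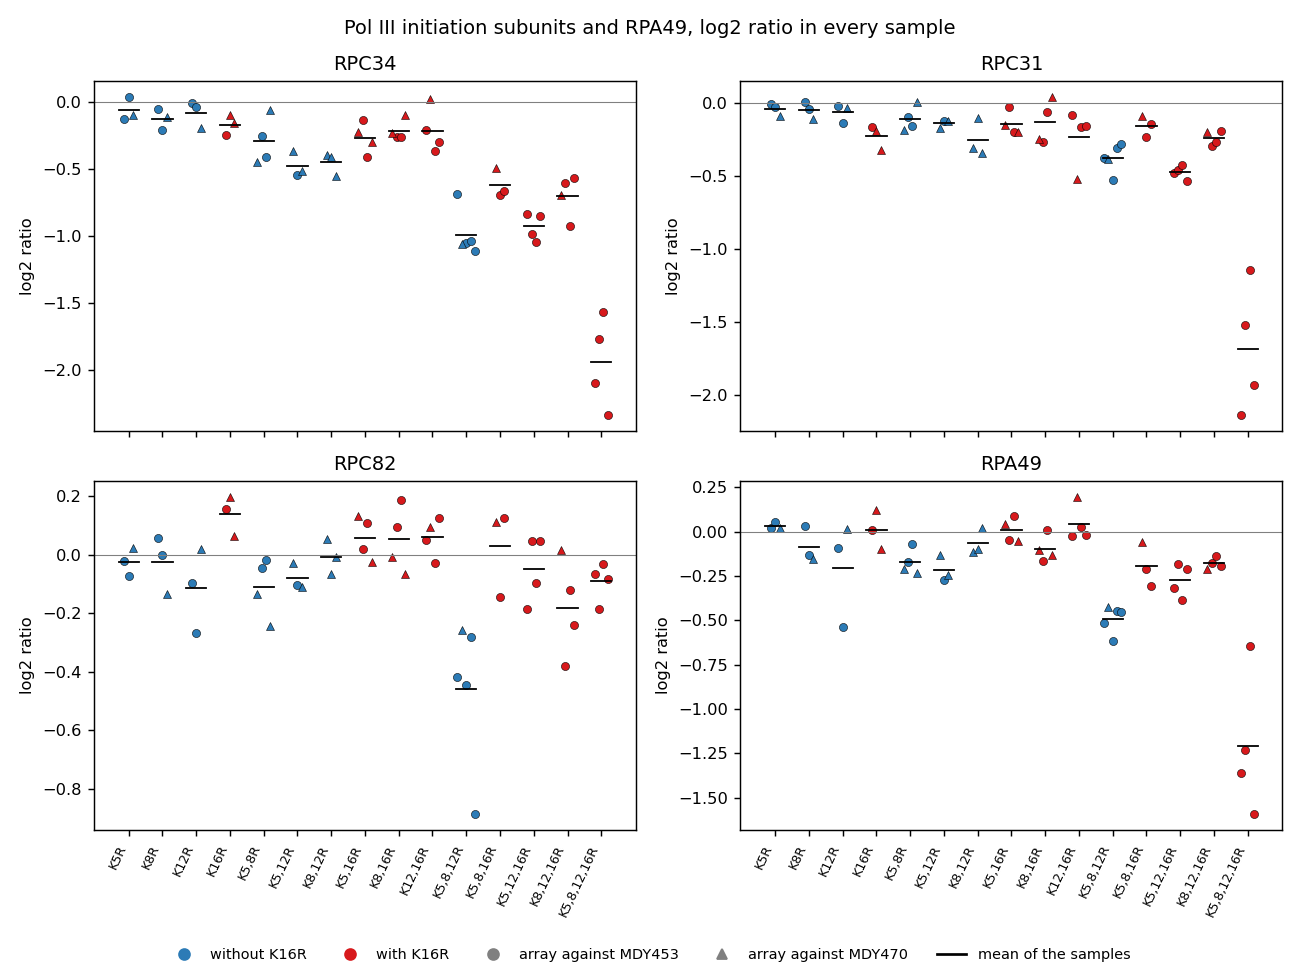
Log2 ratio of RPC34, RPC31, RPC82 and RPA49 in every sample, by mutant, in red where the mutant carries K16R and in blue where it does not, with circles for arrays against MDY453, triangles for those against MDY470 and a line at the mean. RPC34, RPC31 and RPA49 are lowest in the quadruple mutant, at means of -1.94, -1.68 and -1.21, and RPC82 is lowest in K5R/K8R/K12R.

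In the polymerase III stalk, RPC17 behaved differently from RPC31. RPC17, whose product binds the TFIIIB subunit Brf1, read -0.54, -0.86, -0.98, -0.98 and -1.08 in K5R/K8R/K12R. It read -0.52, -0.48, -0.81 and -0.62 in the quadruple mutant, and the 2 sets overlap. The quadruple mutant was not the lowest for RPC17, and its K16R effect was 0.02 ± 0.06 (SE, adjusted p = 0.824 from limma) against a mean 3-site effect of -0.29 ± 0.04, which was -0.17 ± 0.06 within the MDY470 arrays. The difference between the 2 effects, 0.31 ± 0.07, passed the test (adjusted p = 0.000741 from limma). RPC25, the stalk partner, had a mean 3-site effect of -0.24 ± 0.03 and a K16R effect of -0.09 ± 0.04 (adjusted p = 0.0928 from limma). It fell in 21 of 21 pairs that differ by 1 of the other 3 lysines. Unlike RPC17, RPC25 was lowest on average in the quadruple mutant, at -0.65, against -0.40 over the triple-mutant samples.

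The termination module pairs Rpc53 with Rpc37, and the log2 ratios of their genes already differed in the single mutants. RPC37 read between 0.08 and 0.51 in the 12 samples of single mutants and between 0.03 and 0.50 in the 22 of doubles, all above 0. It passed the test in 2 single mutants, at 0.31, 0.51 and 0.25 in K12R and 0.37, 0.39 and 0.41 in K16R. The test in K12R gave an adjusted p of 0.0292 from limma, and it was lost without replicate 2 (0.28, adjusted p = 0.24) or without replicate 3 (0.41, adjusted p = 0.0924). With more substitutions RPC37 was lower: its mean 3-site effect was -0.17 ± 0.03 (SE), although 0.012 in a fit without an intercept (adjusted p = 0.705 from limma). Its K16R effect was -0.09 ± 0.05 (adjusted p = 0.174), and it was lower with K16R in 6 of 7 matched pairs. In the quadruple mutant it read -0.13, -0.34, 0.24 and -0.36, on both sides of 0. RPC53 was near 0 in the single mutants, with means of -0.11 to 0.03, and read -0.62, -0.61, -0.54 and -0.60 in the quadruple mutant. RPC53 was below RPC37 in 51 of 54 samples. The median of RPC53 minus RPC37 was -0.38 in K5R, -0.27 in K8R, -0.42 in K12R and -0.32 in K16R. In the quadruple mutant it was -0.38, so this difference did not grow with the number of substitutions. Whether it is a constant offset between the probes was not tested. RPC11, the subunit for transcript cleavage and termination, fell in the triple mutants, with means of -0.47 to -0.32, and stood at -0.42 in the quadruple mutant. The genes of the large subunits changed little: RPO31 had a mean 3-site effect of -0.08 ± 0.03, which was 0.03 ± 0.06 (adjusted p = 0.784 from limma) within the MDY470 arrays, and it read -0.25, -0.32, -0.24 and -0.26 in the quadruple mutant.

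Polymerase I showed one gene that fell as RPC31 did. RPA49 encodes a subunit of the Rpa49-Rpa34 heterodimer, which aids initiation and elongation. In the quadruple mutant it read -1.36, -1.23, -0.64 and -1.60, in the triple mutants between -0.62 and -0.06, and in the doubles between -0.27 and 0.20. The quadruple samples lay below all triple samples, though the highest of them, from strain MDY487, only by a small margin. The fitted level was 2.27-fold lower (adjusted p = 2.69e-18 from limma), and the mean 3-site effect was -0.31 ± 0.04 (SE), or -0.16 ± 0.03 without the quadruple mutant. Within the MDY470 arrays it was -0.11 ± 0.04 (adjusted p = 0.052). RPA34, the gene of the partner subunit, had a mean of -0.29 in the quadruple mutant and of -0.33 in K5R/K12R/K16R. The log2 ratio of RPA49 minus that of RPA34 lay between -1.47 and -0.05 in the quadruple mutant.

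The polymerase I stalk genes moved apart. RPA43, whose product contacts the initiation factor Rrn3, read -0.58, -0.41, -0.50 and -0.55 in the quadruple mutant, while RPA14 read 0.65, 0.47, 0.48 and 0.79 there. The sets do not overlap, and RPA43 was below RPA14 in 51 of 54 samples. RPA14 was also higher in the K16R single mutant, at 0.35, 0.40 and 0.48, but its call there was lost without replicate 2 (adjusted p = 0.0732 from limma) or without replicate 3 (adjusted p = 0.0718). Its mean 3-site effect was 0.01 ± 0.04 and, without the quadruple mutant, -0.09 ± 0.04. RPA12, the gene of the subunit for transcript cleavage, read 0.50, 0.67, 0.44 and 0.36 in the quadruple mutant, above all triple samples, which reached 0.34. It was higher with K16R in 7 of 7 matched pairs, with a K16R effect of 0.16 ± 0.05 (adjusted p = 0.00788 from limma). That effect was 0.10 ± 0.04 (adjusted p = 0.0608) without the quadruple mutant and 0.09 ± 0.08 (adjusted p = 0.517) within the MDY470 arrays.

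Among the genes of the polymerase I active centre, RPA190 differed between mutants with and without K16R. RPA190 encodes the largest subunit. It read -0.21, -0.28, -0.71, -0.28 and -0.36 in K5R/K8R/K12R, and -0.10, 0.09, 0.08 and -0.07 in the quadruple mutant, which adds K16R. The 5 samples of the triple mutant lay below the 4 of the quadruple mutant. The K16R effect on RPA190 was 0.17 ± 0.05 (SE, adjusted p = 0.0024 from limma) and the mean 3-site effect -0.08 ± 0.03. Their difference was 0.26 ± 0.05 (adjusted p = 0.000136 from limma). Within the MDY470 arrays neither effect passed, at 0.17 ± 0.06 for K16R (adjusted p = 0.0864 from limma) and -0.041 ± 0.041 for the mean (adjusted p = 0.482). RPA135, the second largest subunit, had a difference of 0.24 ± 0.06 in the same direction. The K16R effect itself was 0.14 for RPA135. It did not pass without the quadruple mutant (0.10 ± 0.06, adjusted p = 0.146 from limma) or within the MDY453 arrays (0.14 ± 0.07, adjusted p = 0.134). RPA135 read 0.48, 0.38 and 0.18 in the K16R single mutant. Its call there was lost without replicate 1 (adjusted p = 0.114) or replicate 2 (adjusted p = 0.109). In the K12R/K16R mutant its mean of 0.36 includes the sample from MDY481, at 0.99. RPA190 and RPA43 are divergent neighbours on the chromosome, as RefSeq places them, and RPA43 minus RPA190 lay between -0.58 and -0.47 in the quadruple mutant.

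Among the polymerase II genes, RPO21 rose. It encodes the largest subunit, which carries the C-terminal repeat domain that is phosphorylated during transcription. RPO21 read 0.70, 0.51, 0.39 and 0.61 in the quadruple mutant, between 0.17 and 0.54 in the triple mutants, and between -0.28 and 0.17 in the single mutants. Triple and quadruple samples were all above 0 and overlapped each other. The doubles ranged from -0.51, in 1 sample of K8R/K12R, to 0.39. The K16R effect was 0.36 ± 0.05 (SE, adjusted p = 6.44e-08 from limma), the mean 3-site effect 0.15 ± 0.03, and the difference 0.21 ± 0.06 (adjusted p = 0.00358 from limma). RPO21 was higher with K16R in 7 of 7 matched pairs and higher with each other lysine in 21 of 21. The K16R effect was 0.37 ± 0.05 without the quadruple mutant and 0.33 ± 0.12 (adjusted p = 0.0622) within the MDY470 arrays, where the mean 3-site effect was 0.14 ± 0.07 (adjusted p = 0.162). RPB2, the second largest subunit, had a K16R effect of 0.22 ± 0.05 and means of 0.15 to 0.31 in the triple mutants. In the quadruple mutant its mean was 0.11 ± 0.10 (SD, n = 4), and RPB2 minus RPO21 was below 0 in 4 of 4 samples.

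The remaining polymerase II genes split within their pairs. Rpb3 and Rpb11 form the assembly heterodimer of this enzyme. RPB11 read 0.27, 0.65, 0.50 and 0.68 in the quadruple mutant, and RPB3 read -0.57, -0.62, -0.48 and -0.41. Every RPB11 value was above every RPB3 value. RPB3 had a mean 3-site effect of -0.18 ± 0.02 (SE), which was -0.19 ± 0.05 within the MDY470 arrays, and RPB11 one of 0.15 ± 0.04, which was 0.02 ± 0.10 there (adjusted p = 0.898 from limma). RPB3 minus RPB11 was below 0 in 32 of 54 samples, but above 0 in every sample of K5R and K8R. The genes of the stalk pair Rpb4 and Rpb7 also differed. RPB7 minus RPB4 was below 0 in 49 of 54 samples, including every sample of K5R, K8R and K12R. It lay between -0.89 and -0.36 in the quadruple mutant. RPB4 had a mean 3-site effect of 0.12 ± 0.04, which was 0.11 ± 0.08 (adjusted p = 0.269 from limma) within the MDY470 arrays, and a K16R effect of -0.08 ± 0.06, a difference of -0.20 ± 0.07 (adjusted p = 0.0323 from limma). It was the 1 member that passed the test as lower for K16R than for the other lysines. RPB9, involved in transcription fidelity, had a mean 3-site effect of -0.12 ± 0.02.

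**Figure D4:**
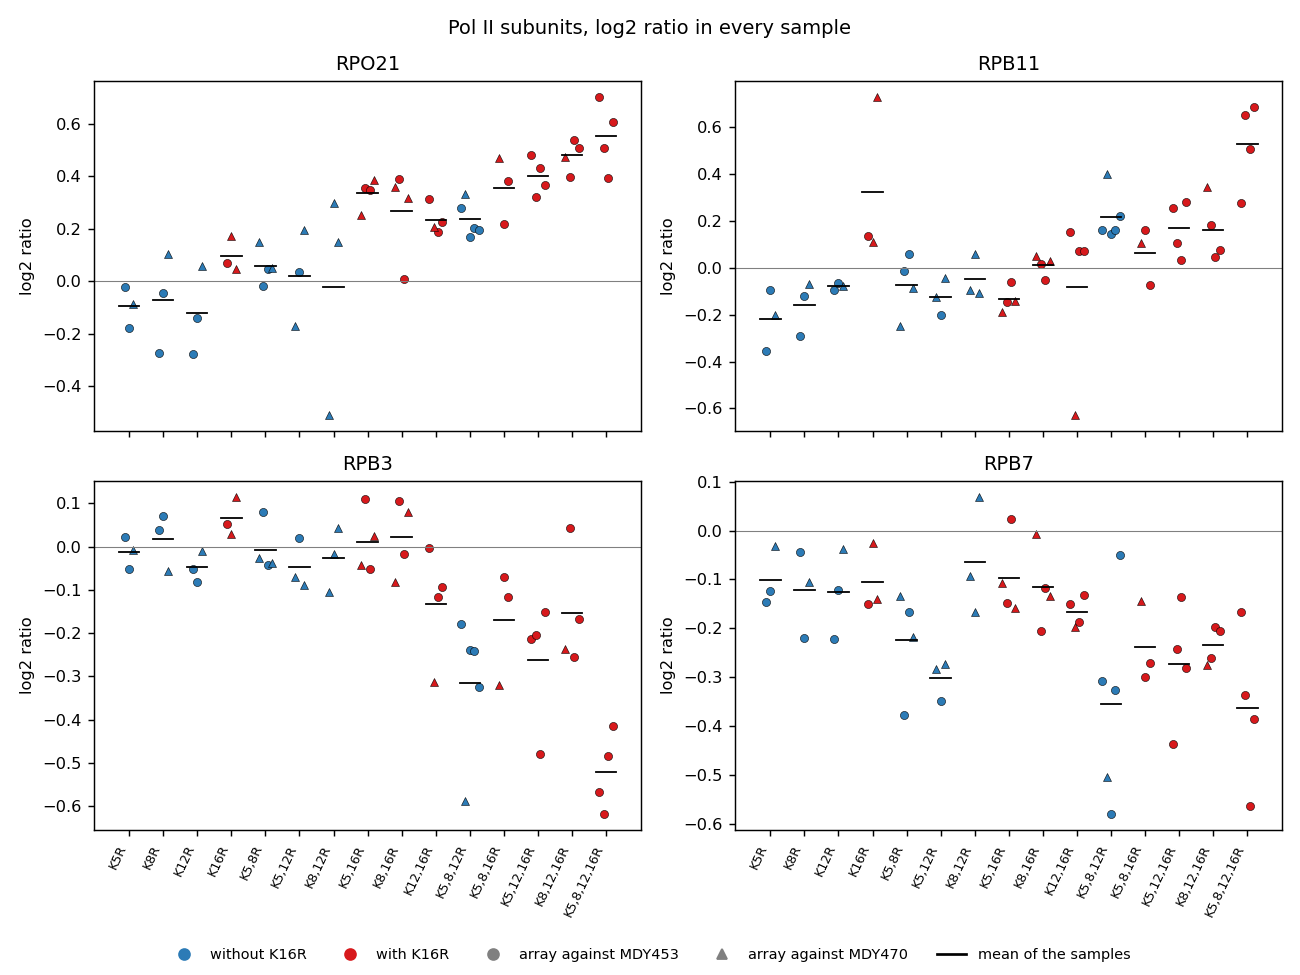
Log2 ratio of RPO21, RPB11, RPB3 and RPB7 in every sample, by mutant, in red where the mutant carries K16R and in blue where it does not, with circles for arrays against MDY453, triangles for those against MDY470 and a line at the mean. RPO21 rises to a mean of 0.55 in the quadruple mutant, RPB11 reaches 0.53 there, and RPB3 and RPB7 fall to -0.52 and -0.36.

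Rpc40 and Rpc19 form the assembly heterodimer of polymerases I and III and correspond to Rpb3 and Rpb11. RPC19 read -1.05, -0.73, -0.32 and -1.02 in the quadruple mutant, whereas the means in the 4 triple mutants were between -0.20 and 0.15. Its mean 3-site effect of -0.15 ± 0.05 (SE) became -0.02 ± 0.04 (adjusted p = 0.729 from limma) without the quadruple mutant and 0.03 ± 0.07 (adjusted p = 0.769) within the MDY470 arrays. RPC40 read -0.39, -0.38, -0.26 and -0.36 in the quadruple mutant. Its mean 3-site effect was -0.18 ± 0.03, and -0.21 ± 0.05 within the MDY470 arrays. RPC40 was higher in the K16R single mutant, at 0.32, 0.26 and 0.14. Of the 5 subunits common to all enzymes, RPB5 and RPB10 were lower and RPC10 was higher for the mean of the 3 lysines, while RPO26 and RPB8 did not pass the test. Without the quadruple mutant RPB5 alone of these passed, as RPB10 had an effect of -0.047 ± 0.037 (adjusted p = 0.282 from limma) and RPC10 one of 0.071 ± 0.034 (adjusted p = 0.0677). Within the MDY470 arrays 0 of the 5 passed, with RPB10 at -0.0076 (adjusted p = 0.931) and RPB5 at -0.072 (adjusted p = 0.287). RPB5 also fell with K16R, by 0.18 on the log2 scale, and in 7 of 7 pairs, but that effect was -0.055 ± 0.076 (adjusted p = 0.691 from limma) within the MDY470 arrays. RPB8 read 0.22, 0.32 and 0.30 in the K16R single mutant.

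The genes of the polymerase I initiation factors changed in opposite directions in the quadruple mutant. RRN3 encodes the factor that makes polymerase I ready to initiate. It read 0.35, 0.62, 0.72 and 0.40, above every triple-mutant sample, which reached 0.19. RRN5 of the upstream activating factor read 0.32, 0.33, 0.63 and 0.33, also above every triple-mutant sample, although the closest of them stood at 0.29. RRN9 and RRN10, of the same upstream activating factor, had means of -0.50 and -0.47 in the quadruple mutant. For K16R, RRN3 had an effect of 0.23 ± 0.05 (SE) and RRN5 of 0.23 ± 0.05, each higher in 7 of 7 matched pairs, and RRN9 had one of -0.22 ± 0.05. These K16R effects were 0.14 ± 0.04, 0.16 ± 0.04 and -0.20 ± 0.05 without the quadruple mutant, each still past the test. Within the MDY470 arrays RRN3 passed, at 0.25 ± 0.07, whereas RRN5 had 0.12 ± 0.06 (adjusted p = 0.241 from limma) and RRN9 -0.099 ± 0.075 (adjusted p = 0.433). RRN6, RRN7 and RRN11 encode the core factor, which brings polymerase I to the promoter. For both K16R and the mean of the other lysines 0 of them passed. In the quadruple mutant RRN11 had a mean of -0.22, with samples from -0.41 to 0.006, whereas RRN6 and RRN7 had means of -0.05 and -0.01.

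TFIIIC recognises the internal promoter boxes of transfer RNA genes and recruits TFIIIB. TFC8, which encodes a subunit of the B-box side, had the largest mean change of this group in the quadruple mutant. It read -0.43, -0.75, -0.79 and -0.67 in the quadruple mutant and had means of -0.45 to -0.29 in the triple mutants. All of these samples were below 0. The TFC8 effects were -0.21 ± 0.03 (SE) for the mean of 3 lysines and -0.18 ± 0.04 for K16R, and it was lower with K16R in 7 of 7 pairs. Within the MDY470 arrays they were -0.17 ± 0.06 (adjusted p = 0.0442 from limma) and -0.13 ± 0.10 (adjusted p = 0.399). Of the other 5 genes, TFC6 alone passed for the mean of 3 lysines, at -0.05 ± 0.02 (adjusted p = 0.0223 from limma). That call was lost without the quadruple mutant (adjusted p = 0.129), within the MDY453 arrays (adjusted p = 0.105) and within the MDY470 arrays (-0.0085, adjusted p = 0.889). TFC1 and TFC4 had effects between -0.01 and 0.01 for both. In the quadruple mutant 1 of the 6 TFIIIC genes was called higher and 2 lower, beside 37.1% and 36.6% of all genes. TFC3 had a mean of -0.24 there, with samples from -0.80 to 0.11, and TFC7 one of 0.16.

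Taken one lysine at a time, the effect of K5R was called higher for 1 member and lower for 15, where 38.8% of all genes were called, 20.5% higher and 18.4% lower. K8R had 3 higher and 15 lower, beside 37.4% of all genes, 19.4% higher and 18.1% lower. K12R had 5 higher and 20 lower, beside 50.4%, 26% higher and 24.4% lower. For these 3 lysines the lower calls outnumbered the higher ones among the 44 members. For K16R the counts were 9 higher and 7 lower. Over all genes 20.3% were higher and 19% lower. By enzyme, 3 polymerase I genes rose and 0 fell, 3 polymerase II genes rose and 1 fell, and 1 polymerase III gene rose and 3 fell. These counts were small and varied with the arrays used. For polymerase I there was 1 higher gene without the quadruple mutant, 1 on the MDY453 arrays and 0 on the MDY470 arrays. For polymerase II there were 3, 3 and 1 higher and 0 lower in each, and for polymerase III 0 higher in each and 3, 2 and 0 lower. Over all genes 20.2% were higher and 19.5% lower without the quadruple mutant, and 12.3% and 11.9% on the MDY453 arrays. The MDY470 arrays alone called 2 of the 44 members for K16R, RPB2 and RRN3, both higher, beside 4.76% of all genes higher and 7.68% lower. The polymerase III gene that rose, RPC82, did so with an adjusted p of 0.0484 from limma, and it missed the threshold when any 1 of 32 of the 54 samples was left out. When K16R was compared with the mean of the other lysines, 9 members were higher and 1 lower, where 8.09% of all genes were higher and 11.4% lower. The 9 were RPA190, RPA135, RPA43, RPO21, RPC82, RPC25, RPC17, RPC40 and RRN5. The members' median difference was 0.08, against 0.00175 over all genes. For RPA190, RPA135, RPC82 and RPC17 the 2 effects had opposite signs. However, the K16R effect of RPC17 was near 0, at 0.02, and did not pass the test. That of RPA135, at 0.14, did not pass without the quadruple mutant (adjusted p = 0.146 from limma).

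**Figure D5:**
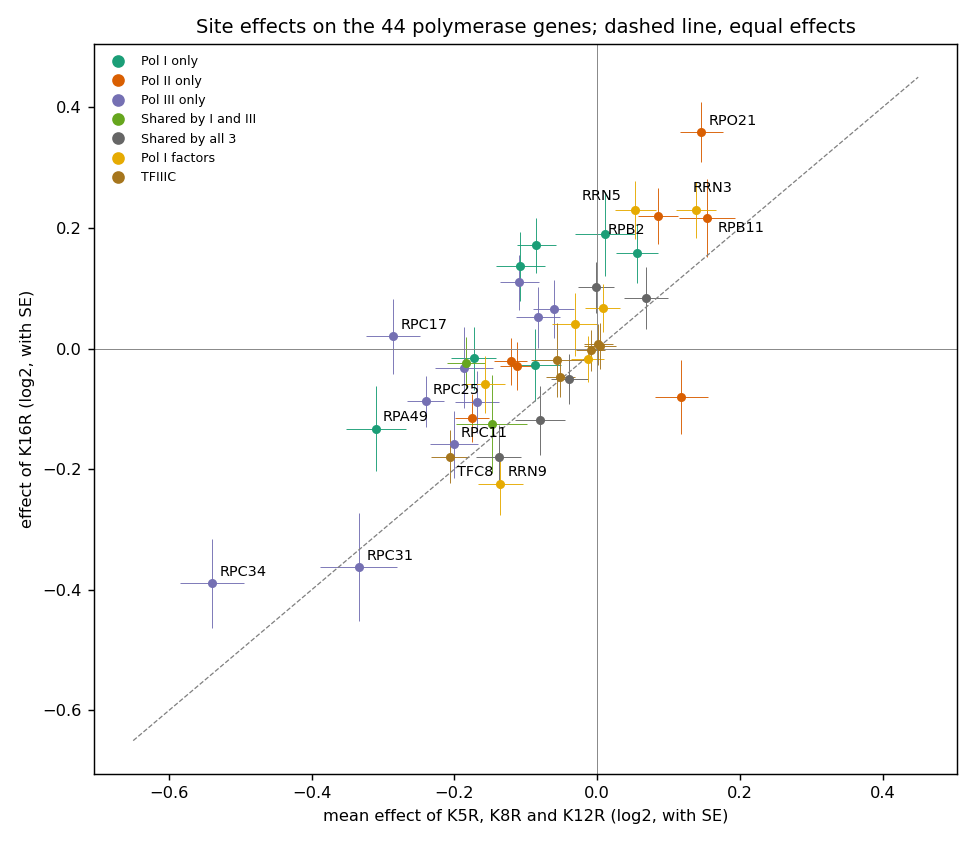
Effect of K16R against the mean effect of K5R, K8R and K12R (log2, with SE bars) for the 44 genes, coloured by enzyme or factor, with a dashed line where both are equal. RPC34 lies farthest to the lower left at -0.54 and -0.39, RPO21 highest at 0.36 for K16R, and RPC17 well above the line at -0.29 and 0.02.

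The single K5R and K8R mutants had 0 members past the test. In K5R limma called 0.632% of all genes, 0.523% higher and 0.108% lower, and in K8R 0.325%, 0.199% higher and 0.126% lower. K12R had 1 member higher, RPC37, and 0 lower, beside 2.87% of all genes, 1.79% higher and 1.08% lower. K16R had 7 higher and 0 lower, beside 8.61% higher and 9.78% lower. The 7 were RPA135, RPA14, RPA12, RPB11, RPC37, RPC40 and RPB8, at means of 0.24 to 0.41. The count was 3 without replicate 2 and 4 without replicate 3, where the share of all genes was not taken. The mean of RPB11 in K16R includes 1 sample at 0.73, its highest value in the 12 single-mutant samples. RPB3 minus RPB11 was -0.61, -0.08 and -0.08 in the 3 samples of K16R. Among the doubles, K5R/K8R had 1 member higher and 4 lower, beside 10.4% of all genes higher and 9.69% lower (20.1% in all). K5R/K12R had 2 higher and 7 lower, beside 14.9% and 12.7% (27.6% in all). K8R/K12R had 0 higher and 3 lower, beside 10% and 11.3% (21.3% in all). In the doubles with K16R, K5R/K16R had 4 higher and 2 lower, beside 10.2% and 13.4% (23.6% in all), and K8R/K16R 3 higher and 0 lower, beside 9.12% and 11.6% (20.7% in all). K12R/K16R had 3 higher and 3 lower, beside 12.7% and 13.4%. RPC34 was lower in all 3 doubles without K16R and in K5R/K16R. It had means of -0.22 and -0.22 in K8R/K16R and K12R/K16R, which did not pass.

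Among the triple mutants, K5R/K8R/K12R had the most members past the test, with 3 higher and 24 lower, where 29.8% of all genes were higher and 30.2% lower (60% in all). It was the triple mutant with the lowest mean for RPC17, RPC25, RPC82, RPA49, RPA190 and RPA43. K5R/K12R/K16R had 5 higher and 18 lower (28.8% and 28% of all genes, 56.8% together). K5R/K8R/K16R had 2 higher and 10 lower (19.2% and 21.1%, 40.3% together), and K8R/K12R/K16R 4 higher and 10 lower (23.5% and 23.1%, 46.6% together). The quadruple mutant had 9 higher and 24 lower, beside 37.1% and 36.6% of all genes (73.8% together). Its 4 samples did not overlap the 16 triple-mutant samples for 6 members. RPA49, RPC34 and RPC31 lay below, which is 6.82% of the members beside 6.62% of all genes, and RPA12, RRN3 and RRN5 lay above, 6.82% beside 8.65%. Both samples of strain MDY486 were lower than those of MDY469 and MDY487 for RPC34, RPC31, RPA49 and RPC19.

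Across the 54 samples, the 45 pairs of polymerase III genes had a median Pearson correlation of 0.478, against 0.249 for the pairs of 6 polymerase I genes with complete values, -0.16 for polymerase II and -0.000945 over all pairs of 5330 genes. Without the quadruple mutant the polymerase III value was 0.543 and the polymerase I value 0.392. These are descriptions: the samples share mutants, strains and references, and genes on 1 array share its errors. The highest correlations over members joined the genes that fell in the quadruple mutant, at 0.877 for RPA49 with RPC34, 0.875 for RPC34 with RPC31 and 0.871 for RPA49 with RPC31. These values include the 4 quadruple samples, in which all of these genes were low. They were not taken for single pairs without those samples. RPB11 with TFC8 had the lowest, at -0.744.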

How the data were processed

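The deposited table holds a log2 ratio for each of 6720 probes on 55 arrays. Of the authors' steps, the log base, direction, dyes, background correction and normalization were not given in the sources used here. Base 2 was inferred from the limit of 6.644, log2 of a ratio of 100, and mutant over parental is the likely direction. Values at the limit were set to missing, each array was centred on the median of 5570 named probes (medians from -0.0702 to 0.0537), and probes were averaged per gene. Technical arrays of MDY487 (r = 0.928) were averaged to 1 sample.

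Both models used limma 3.58.1 under R 4.3.3 (lmFit, eBayes, two-sided, Benjamini-Hochberg over all 5540 genes, threshold 0.05) with strain as a random block (correlation 0.2049 with 1 mean per mutant tested against 0, and 0.3463 with an intercept and 1 effect per lysine). The test against 0 does not include the parental strain's own spread. Separate cultures are not stated for all arrays in the labels, so p-values measure the spread between these samples, part of which may be technical. RPA12 lacked 1 value. By rule, the members described are those with the largest effects for K16R, for the other lysines, for the difference and in the quadruple mutant, the largest subunits, and members past the threshold in a single mutant. Their partners in the enzymes were added after their values were seen. The members and lists were chosen with earlier results of these data known. Leaving out the quadruple mutant was chosen after the data were seen. The methods were tested on simulated data. A planned description of promoter motifs was not run.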

Additional observations from a re-analysis of the deposited data

Results flagged for a closer look

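Of 168 groups of 4 or 5 samples tested for a sample far from the others, 14 (8.33%) had one, where chance gives about 5%, or 1 in 20. Of these, 4 were in K12R/K16R, where the sample from MDY481 read 0.99 for RPA135, 0.63 for RPO31 and 0.34 for RPA190, and another sample read 0.11 for RPC17. In K5R/K8R/K12R 1 sample read -0.69 for RPC34 against -1.04 for the nearest, another -0.48 for RPA135 and another 0.12 for RPC37, and the polymerase I median was -0.55 in 1 sample. In K5R/K8R 1 sample read -0.074 for RPO31. In K5R/K16R 1 sample read -0.16 for RPC17, and the polymerase II median was -0.043 in 1 sample. In K5R/K12R/K16R 1 sample read -0.072 for RPA190, in K8R/K12R/K16R 1 read -0.014 for RPA135, and in the quadruple mutant 1 read 0.63 for RRN5.

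In 6 cases all arrays of a mutant against MDY453 had one sign and all against MDY470 the opposite sign. The differences were not tested. The MDY453 mean minus the MDY470 mean was 0.22 for RPA190 and 0.32 for RPA14 in K5R/K8R, and 0.14 for RPO31 in K5R/K16R. In K8R/K16R it was -0.23 for RRN3, 0.18 for RPC82 and -0.26 for RPB4.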

How the results depend on the processing

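With 3 to 5 samples per mutant the counts of members past the test were unstable for singles and doubles, and other settings moved 56 counts by over 1.5 times. The cause was not tested, except that settings with fewer arrays have less power by construction. For most of these settings the share of all genes called was not taken. The counts below therefore describe the processing and cannot be read as a result about the members. No paired analysis was possible because the labels number biological replicates on a part of the arrays only and do not pair mutants. Scaling the arrays to one spread gave 12 members in K5R, 15 in K8R, 10 in K12R, 14 in K16R, 15 in K5R/K8R, 14 in K5R/K12R, 12 in K8R/K12R, 12 in K5R/K16R, 8 in K8R/K16R and 12 in K12R/K16R, and 9, 11 and 19 for the effects of K5R, of K8R and of K16R minus the mean. Arrays against MDY453 alone gave 0 in K12R, K16R, K5R/K8R, K5R/K12R, K5R/K16R, K8R/K16R and K12R/K16R, 16 in K5R/K8R/K12R, 1 in K5R/K8R/K16R, 5 in K8R/K12R/K16R and 11 for the K8R effect. Arrays against MDY470 alone gave 0 in K12R, 9 in K5R/K8R, 14 in K5R/K12R, 21 in K8R/K12R, 5 in K8R/K16R, 20 in K12R/K16R and 7 in K5R/K8R/K16R, and 0, 2, 7, 2, 13 and 4 for the effects of K5R, K8R, K12R, K16R, the mean of 3 lysines and K16R minus that mean. Leaving out the 13 arrays marked (s), a mark of unstated meaning, gave 0 in K12R, K5R/K8R and K8R/K16R, 3 in K16R, 1 in K5R/K12R and 5 in K5R/K8R/K16R. Without the strain block there were 1 in K5R, 8 in K5R/K8R, 12 in K8R/K12R, 5 in K8R/K16R, 23 in K8R/K12R/K16R and 18 for K16R minus the mean. Without an intercept there were 7, 3, 16, 10 and 6 for K5R, K8R, K12R, K16R and K16R minus the mean. Without centring there were 5 in K8R/K16R, and without the quadruple mutant 17 for K16R minus the mean.

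Signs turned for the mean 3-site effect of RPA14 (-0.093 with scaled arrays and -0.092 without the quadruple mutant), RPC19 (0.031) and RPO31 (0.027) within the MDY470 arrays, and RPC37 (0.012) and RRN3 (-6.96e-05) without an intercept. Leaving out 1 sample at a time gave counts of 0 to 1 in K12R, 3 to 5 in K16R, 1 to 4 in K5R/K8R, 2 to 7 in K5R/K12R, 1 to 7 in K8R/K12R, 2 to 5 in K5R/K16R, 0 to 2 in K8R/K16R, 0 to 10 in K12R/K16R and 5 to 8 in K5R/K8R/K16R. In the other triple mutants and the quadruple mutant the counts stayed within 1.5 times: 23 to 30 in K5R/K8R/K12R, 18 to 23 in K5R/K12R/K16R, 10 to 16 in K8R/K12R/K16R and 30 to 32 in the quadruple mutant. The effects had 28 to 33 members for the mean of 3 lysines and 15 to 18 for K16R. The share of all genes called was not taken in these fits.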

Other observations

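Genes of the same pathway outside the polymerase set were read from lists of initiation factors, elongation factors and assembly factors. Of 8 further factors of polymerases I and III, 1 was higher and 4 lower for the mean effect of the lysines 5, 8 and 12, and 1 was higher and 3 lower for K16R. BRF1 and BDP1, subunits of TFIIIB, had fitted log2 ratios of -0.67 ± 0.05 (SE) and -0.84 ± 0.07 in the quadruple mutant. MAF1, which encodes the repressor of polymerase III, was higher there at 0.31 ± 0.06 and for the mean of the 3 lysines at 0.12 ± 0.02. SPT15, the TATA-binding protein used by all 3 enzymes, had a mean 3-site effect of -0.12 ± 0.03 and a K16R effect of -0.19 ± 0.05.

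Of 17 measured general factors of polymerase II (18 listed), 2 were higher and 6 lower for the mean of the 3 lysines, and 0 were higher and 6 lower for K16R. The genes of TFIIH went both ways for the mean: TFB2, TFB4, TFB1, RAD3 and CCL1 were lower, whereas SSL1 (0.092 ± 0.027) and KIN28 (0.057 ± 0.022) were higher. TFB2 stood at -0.77 ± 0.07 (SE) in the quadruple mutant. Of 8 elongation factors and enzymes that act on the C-terminal repeat domain, 1 was higher and 4 lower. SSU72 and FCP1, phosphatases of that domain, stood at -0.64 ± 0.07 and -0.61 ± 0.07 in the quadruple mutant. Of 7 genes for assembly and import of polymerases, 0 were higher and 5 lower for the mean of the 3 lysines, among them BUD27, GPN2 and IWR1. RBA50 was the 1 gene of this list that was higher for K16R, at 0.25 ± 0.04, and it stood at 0.58 ± 0.07 in the quadruple mutant. For the mean of the 3 lysines 32.3% of all genes were higher and 31.5% lower, and for K16R 20.3% and 19%.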
